A study of Mus musculus with 24 samples.

Results

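miR-103 and miR-107 form a small family of mouse miRNAs that lie inside introns of pantothenate kinase genes. Both were taken by name from a table of small RNA counts (rows mir-103 and mir-107), 2 of the 510 miRNAs listed there, and both passed the filter on low counts that left 237 miRNAs for testing. The 24 libraries came from mammary tumors of PyMT mice and from normal mammary glands of FVB mice, with 3 mice per tissue at each of weeks 6, 8, 10 and 12. PyMT mice were F1 females of FVB strain heterozygous for the MMTV-PyMT transgene, in which the MMTV promoter drives the polyoma middle T oncoprotein in the mammary epithelium, and the controls were FVB females of the same age without it. By the study's methods, the PyMT glands were at hyperplasia at week 6 and adenoma or mammary intraepithelial neoplasia (MIN) at week 8. They were at early carcinoma at week 10 and late carcinoma at week 12. All of these stages are called tumor here. The samples were snap-frozen whole tissue, and the glands of the hyperplasia and adenoma/MIN stages still held normal mammary cells.

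Pantothenate kinase carries out the first, rate-limiting step in the synthesis of coenzyme A, the acyl carrier of fatty acid metabolism. Being intronic, miR-103 and miR-107 can be made from the transcript of their host gene, and a mature miRNA then represses messenger RNAs that pair with its seed, the bases 2 to 8 from its 5′ end. The family is known for repressing Dicer, the enzyme that cuts miRNA precursors, and for acting on insulin sensitivity in liver and fat. It belongs to the wider group of miR-15 and miR-107, whose members share the bases AGCAGC near the 5′ end.

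The mature sequences show why these 2 miRNAs are treated as a family and how narrowly the counts separate them. They are printed from RefSeq (GRCm38.p6), with the seed and the single base that differs, position 22, in capitals.
miR-103-3p: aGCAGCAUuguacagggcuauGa
miR-107-3p: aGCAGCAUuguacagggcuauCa
Both are 23 bases long and differ by 1 substitution, G22C, counted from the 5′ end of miR-103. The first 21 bases are the same, so a read that ends before position 22 fits both. The seed GCAGCAU occurred in 2 of the 1679 mature mouse miRNAs of that table, and those were these 2. How the authors assigned reads that fit both is not given in the sources used here, so the split between the 2 counts is uncertain to that extent.

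miR-103 has 2 genomic copies with the same mature sequence, and the count table has 1 row for them. How reads that fit both copies were assigned is not given in the sources used here. In the mm9 annotation Mir103-1 lies at chr11:35595898-35595983 on the + strand, in intron 5 of 6 of Pank3. Mir103-2 lies at chr2:131113788-131113873 on the + strand, in an intron of 8 of the 9 annotated Pank2 transcripts and in an exon of none. Mir107 lies at chr19:34895177-34895263 on the - strand, in intron 5 of 6 of Pank1, in all 3 annotated transcripts. All 3 hairpins are on the strand of their host gene, and their mm9 sequence was the same as the RefSeq hairpin. The opposite arms differ between the loci as well. The 5p arm changed from Mir103-1 to Mir103-2 by G1A and from Mir103-2 to Mir107 by C16U, again counted from the 5′ end.

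The libraries held 1626022 to 3931375 counts in normal tissue and 1032241 to 2213972 in tumor. miR-103 took 9217 to 25867 counts in normal and 2406 to 6822 in tumor libraries, and miR-107 took 403 to 2400 and 224 to 751. miR-103 was therefore a well-counted miRNA in every library (ranks 22 to 37 of the 510 in normal, 37 to 49 in tumor), and miR-107 ranked lower (72 to 104 in normal, 90 to 114 in tumor). The 95% Wilson intervals of their shares of a library cover counting error only. In the normal week 6 library 1 the share of miR-103 was 0.473% (0.463 to 0.482) and that of miR-107 was 0.0512% (0.0482 to 0.0545). In the tumor libraries of week 8 miR-107 had 224 to 483 counts and a coefficient of variation between mice of 6.38%, so there its spread was near counting error. The levels below are CPM, counts brought to a common library total with factors from the trimmed mean of M values (TMM). Both mature forms have the same length, but that alone does not make their CPM comparable with each other. How reads that fit both were assigned is not given, so a ratio of miR-103 to miR-107 is a ratio of counts. Whether it reflects their relative amounts in the tissue was not tested.

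miR-103 was lower in tumor than in normal mammary gland at all 4 stages, by 1.58-fold in hyperplasia, 1.99-fold in adenoma/MIN, 2.01-fold in early and 2.31-fold in late carcinoma, with 3 mice per tissue at each. miR-107 lay below its normal level in the mean at each stage, but no week passed the same test.

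At week 6, miR-103 stood at 4354, 4713 and 6041 CPM in normal libraries 1, 2 and 3 and at 2881, 3157 and 3518 CPM in tumor libraries 1, 2 and 3. At week 8 it stood at 6064, 4987 and 6036 CPM in normal and at 2708, 2829 and 3284 CPM in tumor. All 3 tumor libraries were below all 3 normal libraries at both early stages. At week 10 the normal values were 6186, 6142 and 4036 CPM and the tumor values 2670, 3245 and 2318 CPM. At week 12 they were 6180, 6157 and 6740 CPM in normal and 2676, 2865 and 2787 CPM in tumor. The tissues did not overlap at any of the 4 weeks, and the closest approach was at week 10, where normal library 3 stood apart from the other two. A tumor group wholly below its normal group was common among the 237 tested miRNAs, with 34.6% of them in week 6, 19.8% in week 8, 31.6% in week 10 and 28.7% in week 12.

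Group means of miR-103 ranked the 4 normal groups above the 4 tumor groups. In order they were normal week 12 (6359 ± 330 CPM, SD, n = 3), normal week 8 (5696 ± 614), normal week 10 (5455 ± 1229), normal week 6 (5036 ± 889), tumor week 6 (3185 ± 320), tumor week 8 (2940 ± 304), tumor week 12 (2776 ± 95.2) and tumor week 10 (2744 ± 468). The ranges of neighbouring groups overlapped in this order except between normal weeks 12 and 8 and between normal week 6 and tumor week 6. The highest of the 12 tumor values, 3518 CPM, was below the lowest of the 12 normal values, 4036 CPM. How many of the other tested miRNAs separated in this way over all weeks was not counted.

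**Figure D1:**
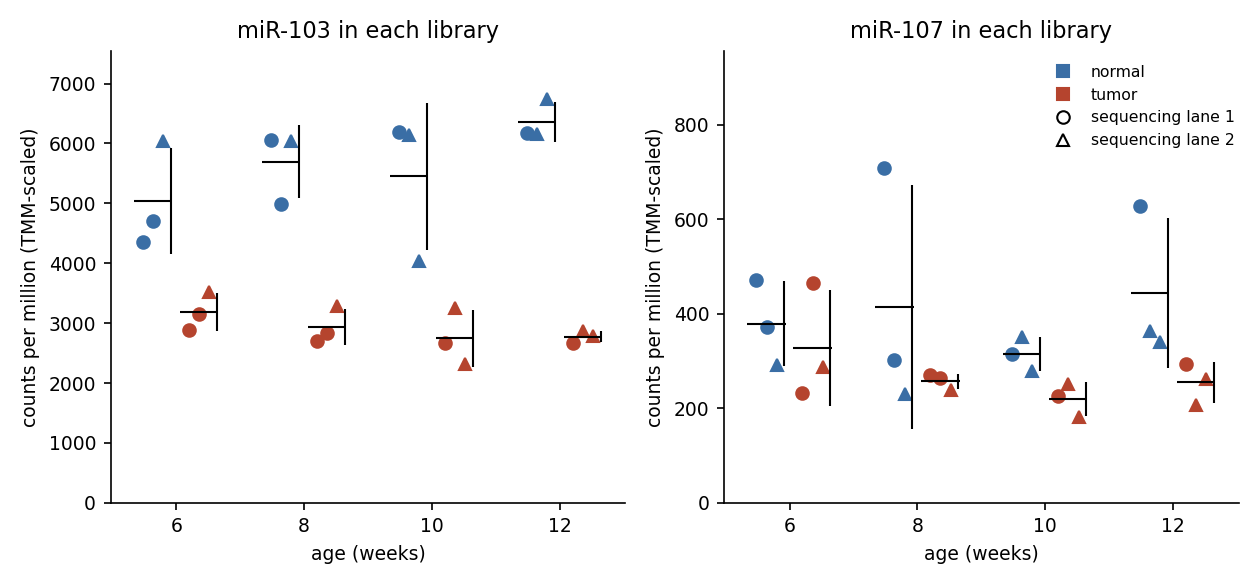
TMM-scaled CPM of miR-103 (left) and miR-107 (right) by age in weeks, 1 point per library, with circles for sequencing lane 1 and triangles for lane 2, horizontal lines for the mean and vertical lines for 1 SD (n = 3 per group). miR-103 separates normal (4036 to 6740) from tumor (2318 to 3518) at every week, while miR-107 overlaps at weeks 6 and 8 and its 2 highest normal values, 709 and 627, are both from lane 1.

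By the quasi-likelihood test of edgeR, adjusted after Benjamini-Hochberg over the 237 miRNAs, miR-103 was under-expressed at week 6 with a log2 fold change of -0.66 (SE 0.18, 95% interval -1.07 to -0.25, adjusted p = 0.0170). At week 8 the value was -0.99 (SE 0.21, -1.47 to -0.51, adjusted p = 0.0110 by edgeR). The carcinoma stages gave -1.01 at week 10 (SE 0.23, -1.54 to -0.48, adjusted p = 0.00784 by edgeR) and -1.21 at week 12 (SE 0.18, -1.63 to -0.79, adjusted p = 0.00171 by edgeR). These calls stand against a background of many others, since 29.5% of the tested miRNAs were called lower in tumor in week 6, 13.5% in week 8, 27.4% in week 10 and 21.5% in week 12, and 29.1%, 21.9%, 32.9% and 29.1% were called higher. The median log2 fold change of all tested miRNAs was -0.12, -0.09, -0.15 and -0.19, and relative to it miR-103 stood at -0.54, -0.90, -0.86 and -1.02. With library sizes in place of TMM the median moved to -0.26, -0.22, -0.17 and -0.0059, while miR-103 stood at -0.54, -0.88, -0.85 and -1.04 relative to it. With fewer libraries some early calls were lost while the fold changes stayed near their size. Without tumor library 1 or 2 of week 6 the log2 fold change of miR-103 was -0.57 or -0.59 (adjusted p = 0.0663 or 0.0864 by edgeR), and without tumor library 1 of week 8 it was -0.94 (adjusted p = 0.0555 by edgeR). The count of all calls moved as well, from 139 to 89 or 78 at week 6 and from 84 to 50 at week 8. At week 12 that count went from 120 to 74 without tumor library 3.

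For miR-107, the week 6 values were 472, 372 and 292 CPM in normal libraries 1, 2 and 3 and 232, 466 and 287 CPM in tumor. At week 8 they were 709, 303 and 231 CPM in normal and 270, 263 and 239 CPM in tumor. The tissues overlapped at both stages, and the spread lay mostly in single libraries, tumor 2 at week 6 and normal 1 at week 8. At week 10 miR-107 stood at 314, 352 and 278 CPM in normal and at 227, 252 and 181 CPM in tumor. At week 12 it stood at 627, 364 and 341 CPM in normal and at 295, 207 and 263 CPM in tumor. The carcinoma stages showed no overlap, as did 31.6% and 28.7% of the tested miRNAs with tumor below normal. Across all weeks the tumor library was below the normal library of the same number in 10 of 12 pairs for miR-107. For miR-103 it was below in 12 of 12. How many of the other tested miRNAs gave such pair counts was not counted.

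The order of the miR-107 group means mixed the tissues. They were normal week 12 (444 ± 159 CPM, SD, n = 3), normal week 8 (414 ± 257), normal week 6 (379 ± 90.1), tumor week 6 (328 ± 122), normal week 10 (315 ± 36.7), tumor week 8 (257 ± 16.4), tumor week 12 (255 ± 44.2) and tumor week 10 (220 ± 36.2). In this order, neighbouring ranges overlapped everywhere but between normal week 10 and tumor week 8.

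By edgeR's quasi-likelihood test, the log2 fold change of miR-107 was -0.20 at week 6 (SE 0.32, 95% interval -0.95 to 0.54, adjusted p = 0.587) and -0.76 at week 8 (SE 0.46, -1.82 to 0.30, adjusted p = 0.212). Without normal library 1 the week 8 value was -0.03, and without tumor library 1 the week 6 value was 0.0081. It was -0.53 at week 10 (SE 0.21, -1.03 to -0.04, adjusted p = 0.0626 by edgeR) and -0.81 at week 12 (SE 0.30, -1.52 to -0.10, adjusted p = 0.0579 by edgeR). The intervals of both carcinoma stages excluded 0, with unadjusted p of 0.0389 and 0.0302 by edgeR, but the adjusted values missed the threshold of 0.05. The interval of miR-107 held the fold change of miR-103 at all 4 weeks.

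**Figure D2:**
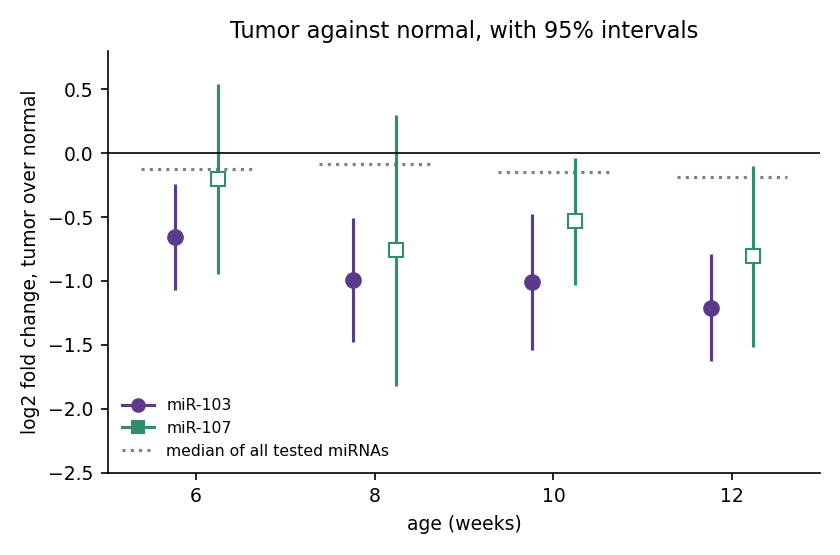
Log2 fold change of tumor over normal at each age in weeks for miR-103 (circles) and miR-107 (squares), with 95% intervals from edgeR's quasi-likelihood fit (n = 3 per tissue and week), filled where the adjusted p was under 0.05 and open otherwise. miR-103 goes from -0.66 at week 6 to -1.21 at week 12 and is filled throughout, miR-107 is open throughout with wider intervals, and the dotted lines mark the median of all 237 tested miRNAs.

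Libraries of the same number deviated together at weeks 6, 8 and 10, where all 3 pairs had a correlation of deviations over 0.1. Each of these pairs also shared its sequencing lane, and the part of the lane in the correlation was not tested. With the replicate number as a block, miR-107 passed the threshold at week 10 (log2 fold change -0.54, adjusted p = 0.0471 by edgeR), in a fit that called 32.9% of the tested miRNAs lower. At week 8 the block raised the count of calls from 84 to 131, with 28.7% of the tested miRNAs lower in tumor, and left miR-103 called and miR-107 not called.

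Whether the gap widened as the tumors progressed was tested next. For miR-103 the tumor-normal difference at week 12 minus that at week 6 was -0.53 on the log2 scale (SE 0.24, 95% interval -1.04 to -0.03, unadjusted p = 0.0378 and adjusted p = 0.326 by edgeR), so a wider gap at week 12 did not pass the test. For miR-107 the same contrast was -0.59 (SE 0.49, 95% interval -1.62 to 0.43, adjusted p = 0.479 by edgeR), and it was -0.13 without tumor library 2 of week 6, -0.26 without normal library 1 of week 12 and -0.38 without normal library 3 of week 6. With library sizes in place of TMM the contrast was -0.25 for miR-103 and -0.29 for miR-107. This contrast called 0.422% of the 237 miRNAs, 1 in number. Over the 4 weeks together, edgeR's interaction test gave adjusted p = 0.938 for miR-103 and 0.971 for miR-107, and called 0 of the 237 miRNAs (0%), with 9 of them at an unadjusted p under 0.05.

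No change of either member with age passed the test inside a tissue. In normal glands, edgeR's test across the 4 weeks gave adjusted p = 0.594 for miR-103 and 0.776 for miR-107, where 13.9% of the tested miRNAs were called. From week 6 to week 12 the normal level of miR-103 differed by 0.34 on the log2 scale (95% interval -0.02 to 0.69, adjusted p = 0.182 by edgeR) and that of miR-107 by 0.23 (-0.49 to 0.95, adjusted p = 0.689), where 21.1% were called. Without normal library 2 of week 12 the value for miR-103 was 0.59 and its adjusted p was 0.0345 by edgeR, in a fit that called 32.1% of the tested miRNAs. With library sizes in place of TMM it was 0.04. Leaving out 1 library took the count of calls across weeks in normal from 33 to between 11 and 60, and that of week 12 against week 6 from 50 to between 32 and 76. In tumors, the test across weeks gave adjusted p = 0.880 for miR-103 and 0.832 for miR-107, with 0 of 237 called by edgeR (0%) and 39 at an unadjusted p under 0.05. From hyperplasia to late carcinoma the tumor level of miR-103 differed by -0.20 (95% interval -0.55 to 0.16, adjusted p = 0.456 by edgeR) and that of miR-107 by -0.36 (-1.09 to 0.36, adjusted p = 0.508), where 7.59% were called. That count of 18 went to 0 without tumor library 1 or 3 of week 6, to 11 without library 2 of week 6 and to 2 without library 2 or 3 of week 12.

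The share of the family that was counted as miR-107 varied from mouse to mouse. In normal glands there were 8.55 to 26.1 counts of miR-103 for each count of miR-107 (median 16.7), and in tumors 6.77 to 13.8 (median 12.0). At week 6 the ratio was 9.22, 12.7 and 20.7 in normal libraries 1, 2 and 3 and 12.4, 6.77 and 12.2 in tumor. At week 8 it was 8.55, 16.4 and 26.1 in normal and 10.0, 10.7 and 13.7 in tumor. In the early stages the tissues overlapped widely. At week 10 the ratio was 19.7, 17.5 and 14.5 in normal and 11.8, 12.8 and 12.8 in tumor, and at week 12 it was 9.85, 16.9 and 19.7 in normal and 9.08, 13.8 and 10.6 in tumor. Week 10 was the one stage without overlap.

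The tumor-normal difference of the log2 ratio was -0.41, -0.44, -0.45 and -0.44 at weeks 6, 8, 10 and 12. Single libraries moved the weekly values, which ran from -0.68 to -0.098 at week 6 (without normal 1 or normal 3, and -0.12 without tumor 2), from -0.86 to -0.058 at week 8 (without normal 1 or normal 3) and from -0.73 to -0.23 at week 12 (without normal 1 or normal 3). Two-sided exact permutation tests gave p = 0.4, 0.5, 0.1 and 0.3, and 3 libraries against 3 cannot give less than 0.1. Over all weeks, permuting tissue within week, the difference was -0.43 (exact p = 0.0224 over 160000 arrangements), a ratio in tumor of 0.740 times that in normal, lower in 10 of 12 same-numbered pairs. Adjusted over these 5 comparisons the exact test gave p = 0.112, so the lower ratio in tumor did not pass. The weekly tests among these 5 could not have passed at 3 against 3, and the test over all weeks averages the same weekly differences. Leaving out any of 3 libraries (tumor 2 or normal 3 of week 6, or normal 3 of week 8) took the unadjusted exact p to between 0.0516 and 0.0527.

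The ratio also moved with the sequencing lane named in the column headers, and each week had 1 or 2 libraries of each tissue on either lane. In normal glands the median ratio was 11.3 in the 6 libraries of lane 1 and 18.6 in the 6 of lane 2, and in tumors it was 10.4 and 12.8. By week, the normal log2 ratio of lane 1 minus lane 2 was -0.94, -1.14, 0.31 and -0.89, so week 10 went the other way. The normal level of miR-107 was higher on lane 1 by 0.59 on the log2 scale in the mean of the weeks (0.0070 at week 10), against -0.07 for miR-103. In the same direction, 16 of the 237 miRNAs had a larger gap. Larger gaps occurred in the other direction as well, where the 5th percentile over the 237 miRNAs was -0.71. The 3 highest normal values of miR-107 (709, 627 and 472 CPM) and the highest tumor value (466 CPM) were all from lane 1. The tumor-normal difference of the log2 ratio was -0.32 within lane 1 and -0.65 within lane 2. Within lanes miR-103 kept its difference (-0.999 in lane 1, -0.927 in lane 2), while that of miR-107 was -0.68 in lane 1 and -0.28 in lane 2, where week 8 stood at 0.04. With the lane as a covariate, miR-107 passed at week 12 (log2 fold change -0.76, adjusted p = 0.0413 by edgeR).

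**Figure D3:**
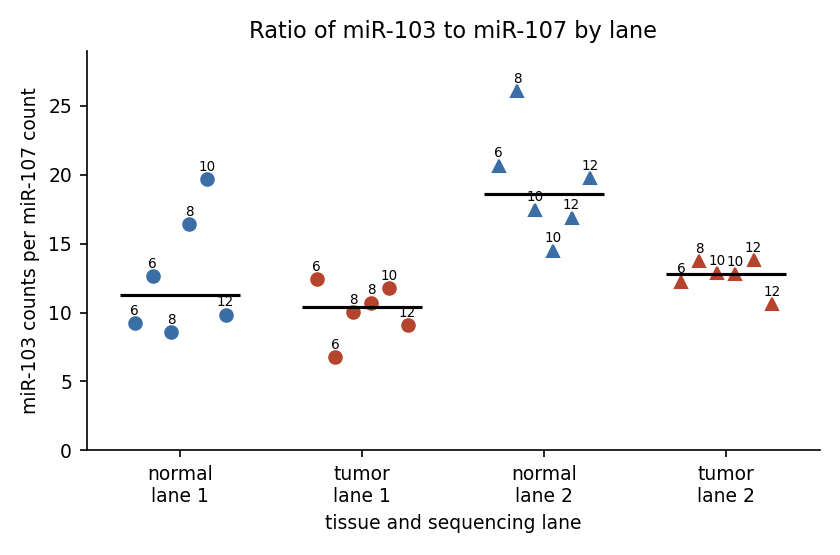
Counts of miR-103 per count of miR-107 in each of the 24 libraries, split by tissue and sequencing lane (6 libraries in each column), with the week above each point and horizontal lines for medians. Normal libraries center on 11.3 in lane 1 and 18.6 in lane 2, while tumor libraries center on 10.4 and 12.8.

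The correlation of miR-103 with miR-107 across mice did not pass the test in either tissue. Over the 12 normal libraries the log2 levels of miR-103 and miR-107 had Pearson's r = 0.11 (permutation p = 0.769) and Spearman's rho = 0.21 (permutation p = 0.517). Over the 12 tumors r was 0.47 (permutation p = 0.122) and rho 0.29 (permutation p = 0.365), and the 2 adjusted p-values for r were 0.769 and 0.245 by permutation. Without the 2 libraries farthest from the median of miR-103, r was 0.11 in normal and 0.23 in tumor. Within lanes 1 and 2 it was 0.34 and 0.36 in normal and 0.75 and 0.82 in tumor, on 6 libraries each.

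Other miRNAs followed each member more closely than its partner did. Likeness was the root mean square (RMS) difference of centred log2 CPM over the 24 libraries, whose median over the 236 other miRNAs was 0.772 for miR-103 and 0.790 for miR-107. Closest to miR-103 were miR-99a at 0.233, miR-100 at 0.259 and miR-143, a miRNA of smooth muscle, at 0.261. Their log2 fold changes in tumor ran from -0.68 to -1.13 for miR-99a, -1.03 to -1.35 for miR-100 and -0.77 to -1.47 for miR-143, and all passed edgeR's test at each week. miR-107 was in place 48 for miR-103, at 0.452. Closest to miR-107 were miR-328 at 0.300, miR-101a at 0.344 and let-7d at 0.373, with miR-103 in place 20. These were lower in tumor by edgeR at weeks 10 and 12 for miR-328 and miR-101a and at week 10 for let-7d, and edgeR's classic test called miR-328 and let-7d at 0 weeks. Tissue and week are shared by all these libraries, so likeness of pattern here includes the tumor-normal difference itself.

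Within the wider group of miR-15 and miR-107, miR-195 and miR-497 were under-expressed at weeks 6, 8 and 10 like miR-103, while miR-15b was over-expressed at weeks 10 and 12. These sequences show the bases AGCAGC (capitals) that define the group and the shift by which the seed of miR-103 and miR-107 differs from that of the others. The core starts at position 1 in miR-103 and miR-107 and at position 2 in the others.
miR-103-3p: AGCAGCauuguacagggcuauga
miR-107-3p: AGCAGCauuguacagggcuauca
miR-16-5p: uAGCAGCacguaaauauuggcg
miR-195a-5p: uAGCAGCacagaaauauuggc
miR-497a-5p: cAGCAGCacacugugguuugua
The core lay within the first 8 bases of 13 of the 1679 mature miRNAs. Of the 7 other listed members, 5 were tested. miR-322 and miR-503 were listed at 0 counts in all 24 libraries, as were 55 of the 56 miRNAs that the mm9 annotation places on chromosome X alone, so their level was not measured.

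By edgeR, 2 of the 5 were lower in tumor at weeks 6 and 8, 3 were lower and 1 higher at week 10, and 0 were lower and 1 higher at week 12, beside the backgrounds of lower and higher calls given above. The medians of the 5 log2 fold changes were -0.44, -0.63, -0.58 and -0.31, against -0.12, -0.09, -0.15 and -0.19 for all tested miRNAs. miR-195 differed by -1.13 (SE 0.25), -1.27 (SE 0.31) and -1.25 (SE 0.16) at weeks 6, 8 and 10 with adjusted p of 0.00846, 0.0182 and 0.000886 by edgeR, and by -0.65 (SE 0.26, adjusted p = 0.0689) at week 12. miR-497 differed by -0.95 (SE 0.21), -1.01 (SE 0.25) and -0.78 (SE 0.16) at those weeks with adjusted p of 0.00901, 0.0185 and 0.00559 by edgeR, and by -0.31 (SE 0.26, adjusted p = 0.358) at week 12. miR-16, which is close to miR-103 in level with a mean of 3748 CPM, passed at week 10 alone (-0.58, SE 0.12, adjusted p = 0.00559 by edgeR). miR-15b, named after its values were seen, was the member called higher, at 0.57 at week 10 and 0.84 at week 12 (adjusted p of 0.0391 and 0.0176 by edgeR). edgeR's classic test called miR-15b and miR-16 at 0 weeks. At week 12 none of the 5 was called lower, with miR-16 at an adjusted p of 0.0546 and miR-195 at 0.0689 by edgeR, and a single fit of all 24 libraries called 2 of them lower. Their difference from miR-103 was not tested.

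**Figure D4:**
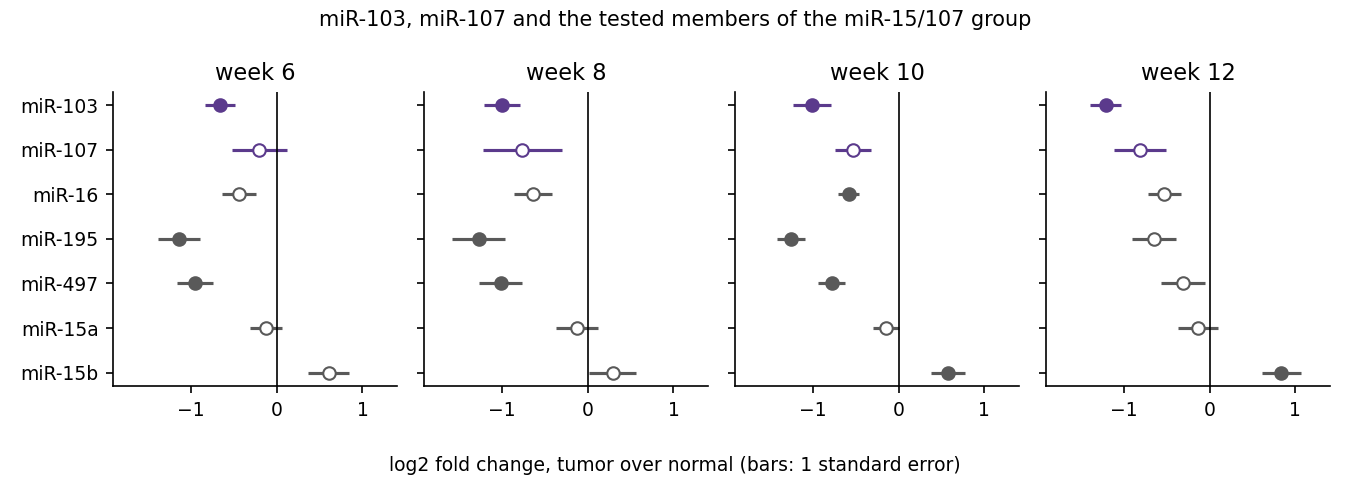
Log2 fold change of tumor over normal at weeks 6, 8, 10 and 12 for miR-103 and miR-107 (purple) and the 5 tested members of the wider group (grey), with bars of 1 standard error and filled points where edgeR's adjusted p was under 0.05. miR-103 is filled at every week, miR-195 and miR-497 at weeks 6, 8 and 10, and miR-15b lies to the right of 0.

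Several lists of cell type markers differed between the tissues, some in the direction of miR-103 and some in the other. In bulk tissue, fewer cells of a type and less RNA per cell cannot be told apart. The miR-200 family, which marks epithelium, was higher in tumor for 5 of 5 members at every week (median log2 fold changes of 1.92, 2.26, 2.14 and 2.32), where 29.1%, 21.9%, 32.9% and 29.1% of all tested miRNAs were called higher, and miR-200b had a mean of 2308 CPM in normal and 13492 CPM in tumor. Over the whole epithelial list, 8 of 10 members were called higher at each week, 1 was called lower at week 12, and the summed level, given here and below as CPM of the library total, was 12326 to 32502 CPM in normal and 57068 to 84113 in tumor, with no member at 0. The list of fibroblast and smooth muscle miRNAs (miR-143, miR-145, miR-199a, miR-199b and miR-214) was lower for 5 of 5 at every week, where 29.5%, 13.5%, 27.4% and 21.5% of all tested miRNAs were called lower, and its sum was 172180 to 262659 CPM in normal and 58298 to 125719 in tumor. miR-126 of endothelium was lower at every week, from 20737 to 35529 CPM in normal and 5413 to 18709 in tumor.

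The fat-linked list (miR-193b, miR-365 and miR-378) bears on a family known for a role in adipose tissue. Its sum was 4994 to 27296 CPM in normal and 2510 to 15456 in tumor, with overlap, and of its 3 members 1 was higher at week 6 (miR-193b), 0 were called at week 8, and 1 was lower at weeks 10 and 12 (miR-378), both named after their values were seen. A count of 1 in 3 is near the share called over all tested miRNAs, 29.1% higher at week 6 and 27.4% and 21.5% lower at weeks 10 and 12. No member of these stromal and fat-linked lists was at 0 in either tissue. The skeletal muscle list summed to 96.5 to 94978 CPM in normal and 40.7 to 17251 in tumor, so single libraries were rich in its members. The erythroid list summed to 8237 to 37513 and 1697 to 13053 CPM, and the leukocyte list to 1860 to 3408 and 1109 to 1931 CPM, in normal and tumor. At week 12, where 21.5% of all tested miRNAs were called lower, 3 of 3 tested skeletal muscle members (median log2 fold change -6.19) and 3 of 3 erythroid members (median -1.38) were called lower. At weeks 6, 8 and 10, where 29.5%, 13.5% and 27.4% of all tested miRNAs were called lower, 0 or 1 member of each of these 2 lists was called lower. Of the 3 tested leukocyte members, 1 was lower at every week (medians of the list from -0.29 to -0.02). A count of 1 in 3 is near the shares of weeks 6 and 10. At 0 in every library of a tissue were 1 skeletal muscle member in tumor and 1 leukocyte member in both. Whether the 0 of this leukocyte member was a level or a miRNA that was not measured was not tested. As given above, 55 of the 56 miRNAs placed on chromosome X alone were at 0 in all libraries. The part of these cell types in the lower level of miR-103 was not tested.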

How the data were processed

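Small RNA of snap-frozen mammary tissue was sequenced in 24 libraries, 3 mice per tissue and week. The authors trimmed the reads, aligned them to the mouse genome with Bowtie, kept reads of mature miRNA size and deposited raw counts per miRNA, adding reads that overlapped a miRBase miRNA by more than a set share. The labels name mm9 and the study's methods mm10, and the count table holds no coordinates. No molecular identifiers are described, so a count is a read, and the totals of 1032241 to 3931375 counts per library set the precision. Every column was mapped to a sample by its label.

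The 2 members and all lists were chosen with earlier results of these data known. Named beside them are the 3 miRNAs most like each member and the 3 of each list with the highest mean CPM. miRNAs were filtered with filterByExpr (237 kept), scaled by TMM and tested for tumor against normal at each week by edgeR's quasi-likelihood test (edgeR 4.0.16, R 4.3.3), in a fit of that week's 6 libraries. A fit of all 24 libraries, with a mean for each of the 8 groups, gave the interactions and the changes with age inside a tissue. p-values were adjusted by Benjamini-Hochberg over all 237, with a threshold of 0.05. CPM on the log2 scale used a prior count of 2. The ratio of the members' counts (pseudocount 0.5) was compared by exact permutation. The test scripts were tested on simulated data. Loci come from the GENCODE annotation of mm9 and sequences from RefSeq.

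Same-numbered libraries were checked for pairing by the correlation of their deviations from group means, with ranges of 0.20 to 0.51 (week 6), 0.34 to 0.53 (week 8), 0.49 to 0.82 (week 10) and 0.03 to 0.42 (week 12). It was over 0.1 in all 3 pairs except at week 12 (1 of 3). At every week both libraries of a pair were on the same lane, so pairing by number was not separated from the lane. Alternatives were DESeq2 1.42.0 and its size factors, library sizes only, edgeR's classic test, no filter, a minimum of 10 counts per library, the replicate number or the lane as a term, 1 fit of all 24 libraries, and leaving out each library. The within-lane values and leaving out the 5 most counted miRNAs were chosen after seeing the data.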

Additional observations from a re-analysis of the deposited data

How the results depend on the processing

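The lower miR-103 in tumor kept its direction and its call at all 4 weeks under the 10 alternatives other than leaving out a library (highest adjusted p 0.0414, edgeR's classic test at week 6). miR-107 passed at week 10 by DESeq2 (-0.53, adjusted p = 0.0452), with the replicate block (-0.54, adjusted p = 0.0471 by edgeR) and without the 5 most counted miRNAs (-0.58, adjusted p = 0.0473 by edgeR), and at week 12 by DESeq2 (-0.78, adjusted p = 0.0255), with the replicate block, where the numbers did not pair the libraries (-0.77, adjusted p = 0.0362 by edgeR), and with the lane as a covariate (-0.76, adjusted p = 0.0413 by edgeR). Over those 10 alternatives its adjusted p ran from 0.0452 to 0.237 at week 10 and from 0.0255 to 0.177 at week 12. The cause was not tested. The block changed no other call of the members, and the block gave p = 0.0107 for the ratio over all weeks by the exact test. With library sizes only, the change of miR-107 in normal from week 6 to 12 was -0.072 in place of 0.23 and that of miR-103 0.041 in place of 0.34, and week 12 minus week 6 of the tumor-normal difference was -0.25 in place of -0.53 for miR-103 and -0.29 in place of -0.59 for miR-107. Leaving out 1 library gave log2 fold changes of miR-103 between -0.75 and -0.51 (week 6) and between -1.12 and -0.89 (week 8), and of miR-107 between -0.47 and 0.0081 (week 6), -0.98 and -0.029 (week 8), -0.69 and -0.40 (week 10) and -1.02 and -0.47 (week 12). From week 6 to 12 the range was 0.24 to 0.59 for miR-103 in normal, -0.10 to 0.58 for miR-107 in normal and -0.56 to 0.066 for miR-107 in tumor. For the tumor-normal difference at week 12 minus week 6 it was -0.72 to -0.44 for miR-103 and -0.87 to -0.13 for miR-107. For the log2 ratio over all weeks it was -0.54 to -0.34. Over all alternatives the number of weeks called lower ran between 0 and 4 for miR-328, 0 and 3 for miR-16 and 0 and 2 for let-7d, and the number called higher between 0 and 3 for miR-15b, while all 5 members of the miR-200 family stayed called higher at each week. A fit of all 24 libraries called 2 of the 5 tested relatives lower at week 12, in place of 0. miR-107 had fewer counts than miR-103, with as few as 224 in a library. Its coefficient of variation between mice ran from 6.38% (tumor week 8) to 62.1% (normal week 8, the group of its library with 2400 counts). For miR-103 it ran from 3.43% (tumor week 12) to 22.5% (normal week 10). The parts of depth and of spread between mice in the missed calls were not tested.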
